A study of Mus musculus with 4 samples.

Results

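The 9 genes described here are 2 ligands (Igf1, Igf2), 1 receptor (Igf1r) and 6 binding proteins (Igfbp2, Igfbp3, Igfbp4, Igfbp5, Igfbp6, Igfbp7) of the insulin-like growth factor (IGF) system. They were taken by symbol from the 31053 genes of single-cell RNA sequencing matrices of the mouse submandibular salivary gland, and all 9 were found. All mice were female C57BL6/J. In 2 libraries (deligated 1 and 2) the main ducts had been clipped for 14 days and then opened for 5 days, at 14 weeks of age, and 2 libraries (homeostatic 1 and 2) came from 12-week-old mice that had no surgery. Suspensions were enriched for stroma by bead depletion of EpCAM-positive epithelial cells and Ter119-positive red blood cells and by removal of dead cells. The protocols also name the sublingual gland, 2 glands were harvested, and the number of animals behind a library is not stated. The p-values below therefore measure the spread between libraries, which may be technical.

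IGF1 and IGF2 are secreted growth factors that signal through the tyrosine kinase receptor IGF1R, and so promote growth and survival of many cells. Most IGF outside cells is held by binding proteins, which prolong its life, deliver it or keep it from the receptor, and which proteases can cut to set it free. IGFBP7 binds IGF weakly and is widely known as a vessel-associated matrix protein.

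The libraries held between 4725 and 13266 barcodes, of which 33695 cells in all were retained, with median counts of 6075 and 5278 UMIs (unique molecular identifiers, which count captured RNA molecules) per barcode in the deligated and 2912.5 and 2765.5 in the homeostatic libraries. Between 14 and 54 barcodes were shared by any pair of libraries, at most 0.482% of a library. Cells were clustered and named by resemblance to marker lists. Fibroblast-like cells numbered 349, 684, 298 and 280, mural-like cells (pericytes and vascular smooth muscle) 320, 448, 132 and 118, and endothelial-like cells 1874, 3117, 3506 and 3452, in the order deligated 1, deligated 2, homeostatic 1, homeostatic 2, which is kept throughout. Clusters within these classes separated by group. Fibroblast-like cells lay in cluster 9 (344, 684, 3 and 8 cells) and cluster 16 (5, 0, 295 and 272), most endothelial-like cells in clusters 2 and 15 (deligated) or 0, 13 and 20 (homeostatic), and mural-like cells in clusters 18 and 21 (deligated) or 27 (homeostatic). Levels are UMIs of the gene scaled to the total UMIs of a class in a library (CPM). They are compared between classes and groups for 1 gene at a time and not between genes, because they are not scaled by length.

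One feature of the files touches every change given below. The deligated matrices were made with Cell Ranger 6.0.1 and the homeostatic ones with 7.0.0, per the file headers, so software version, age and surgery cannot be told apart. Whether intron reads were counted in both groups or in only 1 is not given in the sources used here, and a fold change from the deposited counts may hold such a difference in counting. Genes with over 100 kb of intron had a median log2 fold change (deligated over homeostatic) of -1.02 in fibroblast-like, -0.73 in mural-like and -0.86 in endothelial-like cells, against 0.30, 0.18 and 0.22 for genes with up to 2 kb. Each change of a member in a tested class was therefore also computed with this trend removed. Changes of other single genes and of sub-groups were not computed this way. Igf1r has 264 kb of intron, Igf1 68.9 kb, Igfbp7 57.6 kb, Igfbp2 26.1 kb, Igfbp5 10.9 kb, Igf2 10.3 kb, Igfbp4 8.73 kb, Igfbp3 4.71 kb and Igfbp6 4.04 kb.

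Igf1 and Igfbp4 rose in deligated fibroblast-like and endothelial-like cells, and Igfbp4 and Igfbp5 rose in deligated mural-like cells. The 250 bases upstream of the RefSeq start site of these 3 genes (GRCm38.p6) are shown because these members carry the main changes. For Igf1 this start lies inside the gene's span given below, which begins at 87858265. Each is written 5′ to 3′ on its own strand, with capitals for any motif found.
Igf1, chr10:87860861-87861110, plus strand: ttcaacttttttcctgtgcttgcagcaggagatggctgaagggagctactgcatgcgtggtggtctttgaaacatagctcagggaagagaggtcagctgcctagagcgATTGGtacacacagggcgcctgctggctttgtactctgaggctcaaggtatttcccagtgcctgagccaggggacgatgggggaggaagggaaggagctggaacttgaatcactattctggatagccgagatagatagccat
Igfbp4, chr11:99040994-99041243, plus strand: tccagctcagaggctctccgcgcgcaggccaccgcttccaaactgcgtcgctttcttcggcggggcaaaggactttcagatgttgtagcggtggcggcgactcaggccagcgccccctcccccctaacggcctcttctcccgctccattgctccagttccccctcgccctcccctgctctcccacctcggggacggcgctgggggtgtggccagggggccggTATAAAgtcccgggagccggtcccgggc
Igfbp5, chr1:72874866-72875115, minus strand: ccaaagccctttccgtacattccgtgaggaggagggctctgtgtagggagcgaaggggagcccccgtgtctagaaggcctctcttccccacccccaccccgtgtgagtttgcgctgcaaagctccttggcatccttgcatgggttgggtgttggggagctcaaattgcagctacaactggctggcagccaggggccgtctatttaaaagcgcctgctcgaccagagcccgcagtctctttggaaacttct
The window of 250 bases before to 50 after the start was searched on both strands for the TATA box TATAAA, the GC box GGGCGG, the CCAAT box, the forkhead motif TGTTTAC and the AP-1 motif TGAGTCA, none of which contains another. Igf1 held CCAAT on the opposite strand, 142 bases before the start (the capitals read ATTGG), a motif that 37.4% of 32851 promoters of this length held. Igfbp4 held TATAAA 28 bases before the start, which 13.6% held. Igfbp5 held none of the 5. No motif was shared by the 3 genes. CpG pairs numbered 6, 27 and 10 in the windows of Igf1, Igfbp4 and Igfbp5, where the median promoter held 7.

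Igf1 (ENSMUSG00000020053, chromosome 10, 87858265 to 87937042, GRCm38, plus strand) was highest in fibroblast-like cells, at 893, 752, 424 and 381 CPM. Both deligated libraries lay above both homeostatic ones. The log2 fold change was 1.08 (SE 0.15, edgeR quasi-likelihood, Benjamini-Hochberg adjusted p = 0.000418), and it was 1.46 with the intron-length trend removed (adjusted p = 0.000308 in edgeR, range over 14 alternatives 3.51e-24 to 0.0289). Igf1 UMIs were found in 93.4%, 93.4%, 74.2% and 75% of fibroblast-like cells (NK/innate lymphoid-like cells: 1.08%, 1.33%, 0.224% and 0%, the last allowing up to 0.388% by the exact Clopper-Pearson interval, for counting error only). Fibroblast-like cells were deeper in the deligated libraries (median 13234, 9278, 6800.5 and 6558 UMIs, against 5990, 5534.5, 6258 and 6195 in NK/innate lymphoid-like cells). After thinning every cell to 1000 UMIs the shares in fibroblast-like cells were 48.7%, 41.7%, 31.5% and 25.4%.

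Endothelial-like cells were the other main source of Igf1. They held 105, 84.6, 55.2 and 54.2 CPM, a log2 fold change of 0.82 (SE 0.14, adjusted p = 0.00594 in edgeR), with no overlap between groups. Fibroblast markers summed to 39.6, 121, 11.2 and 10.8 CPM in these cells, also higher in both deligated libraries. Their part in the Igf1 change was not tested. The change in fibroblast-like minus that in endothelial-like cells did not pass the threshold (log2 difference 0.42, adjusted p = 0.0768 in edgeR). Macrophages are a known source of IGF1 in injured tissue. Macrophage-like cells held 5.97, 65, 31.4 and 25 CPM, and were not tested because deligated 1 had 35 of them. Mural-like cells stayed between 7.99 and 15.4 CPM (log2 fold change -0.41, SE 0.44, adjusted p = 0.662 in edgeR), and the groups overlapped.

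The source of Igf1 differed between the groups. Fibroblast-like cells held 72.4% and 74.8% of all Igf1 UMIs in the deligated and 46.1% and 44.0% in the homeostatic libraries, and endothelial-like cells 26.0% and 22.3% against 41.5% and 46.1%. Fibroblast-like cells also made up more of the libraries, with 14.6% and 13.8% of all UMIs against 4.83% and 4.65%, so the shares carry the cell mix as well as the level per cell. Macrophage-like cells held 0.0172%, 0.516%, 5.56% and 4.69% of Igf1 UMIs, from 35, 99, 916 and 914 cells.

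**Figure D1:**
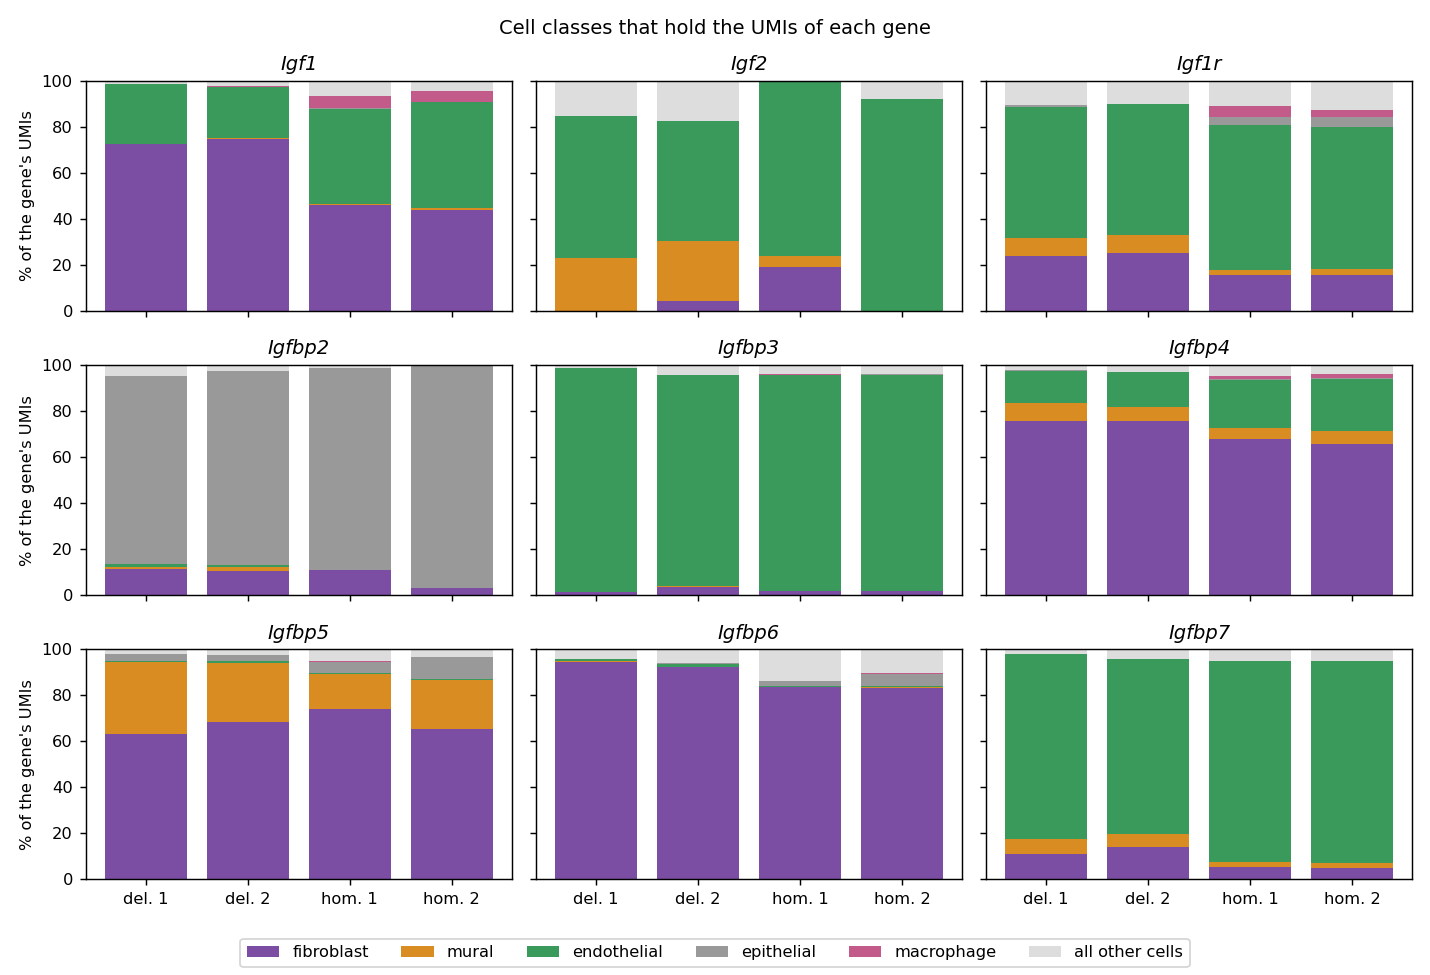
Share of each gene's UMIs (percent, y axis) that 5 cell classes and all other cells hold in deligated (del.) and homeostatic (hom.) libraries 1 and 2. Fibroblast-like cells hold 72.4% and 74.8% of Igf1 in the deligated and 46.1% and 44.0% in the homeostatic libraries, and endothelial-like cells hold 92.0% to 97.3% of Igfbp3 in all 4. The Igf2 panel rests on 13 to 23 UMIs a library.

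Within the endothelial-like class Igf1 followed the vessel type. Arterial cells (named from markers such as Gja5 and Bmx) held 23.8, 14.1, 1.38 and 2.31 CPM, the last 2 from 2 and 3 UMIs. Venous cells (Ackr1, Selp) held 102, 107, 82.1 and 156 CPM, and the remaining endothelial-like cells, whose clusters met no sub-group's markers, held 120, 92.4, 60.7 and 56.8 CPM. Arterial cells were lowest in all 4 libraries. Among arterial cells and among the remaining cells both deligated libraries were higher, whereas the groups overlapped in venous cells. These sub-groups come from clustering the same cells and were not tested.

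Igf2 (ENSMUSG00000048583, chromosome 7, 142650766 to 142666816, minus strand), the fetal growth factor that is imprinted and mostly silent after birth, was barely detected. Whole libraries held 13, 23, 21 and 13 Igf2 UMIs. Endothelial-like cells held 48 of these UMIs, and 43 of the 48 (89.6%) were in arterial cells, which made up 1387 of 11949 endothelial-like cells. Arterial cells held 3.89, 3.95, 11.03 and 9.23 CPM, from 8, 7, 16 and 12 UMIs. The class as a whole gave a log2 fold change of -0.64 (SE 0.38, adjusted p = 0.237 in edgeR). Igf2 overlaps Gm49394 on its own strand and Igf2os on the other, so its few UMIs cannot be assigned with certainty.

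Igf1r (ENSMUSG00000005533, chromosome 7, 67952827 to 68233668, plus strand), the receptor, was read in every stromal class. Schwann-like cells, the glia of peripheral nerve, held 146, 220, 340 and 301 CPM from 28 to 64 cells a library. Fibroblast-like cells held 99.8, 109, 200 and 226 CPM, endothelial-like cells 78.5, 93.8, 119 and 121 CPM and mural-like cells 71.0, 91.4, 101 and 105 CPM. This order of the 4 classes was the same in all 4 libraries. Endothelial-like and mural-like cells were closest, and their ranges overlapped within the deligated group. NK/innate lymphoid-like cells held at most 3.83 CPM.

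In the counts as deposited Igf1r was lower in deligated cells, and the groups did not overlap in any of the 4 stromal classes. The log2 fold change was -0.98 in fibroblast-like (SE 0.14, adjusted p = 0.000542 in edgeR) and -0.46 in endothelial-like cells (SE 0.09, adjusted p = 0.0102 in edgeR). It was -0.36 in mural-like cells (SE 0.18, adjusted p = 0.284 in edgeR). With the intron-length trend removed these values became 0.26, 0.58 and 0.57, and the endothelial value then passed the threshold in the opposite direction (adjusted p = 0.00789 in edgeR, range over 15 alternatives 1.95e-07 to 0.113). The direction of Igf1r thus turned with this setting. The fitted trend at its intron length was -1.24 in fibroblast-like and -1.04 in endothelial-like cells.

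Among T cell-like cells Igf1r was highest in 1 cluster, led by Cd163l1, Il17a and Il23r. It held 85.4%, 77.5%, 44.4% and 72.8% of the Igf1r UMIs of the class, so most lay outside it in homeostatic 1, and 294 of 403 over all libraries, in 253 of 1861 cells. Its levels were 122, 178, 570 and 656 CPM, against 8.36, 4.52, 31.4 and 23.4 CPM in the other T cell-like cells. The cluster held 157, 61, 11 and 24 cells, so the level of the whole class (40.9, 18.5, 54.2 and 78.5 CPM) also moves with its share. Both sets of cells were lower in the deligated libraries, where genes with over 100 kb of intron had a median of -1.30 in this class, and the class did not pass the threshold (log2 fold change -1.04, SE 0.36, adjusted p = 0.0727 in edgeR).

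**Figure D2:**
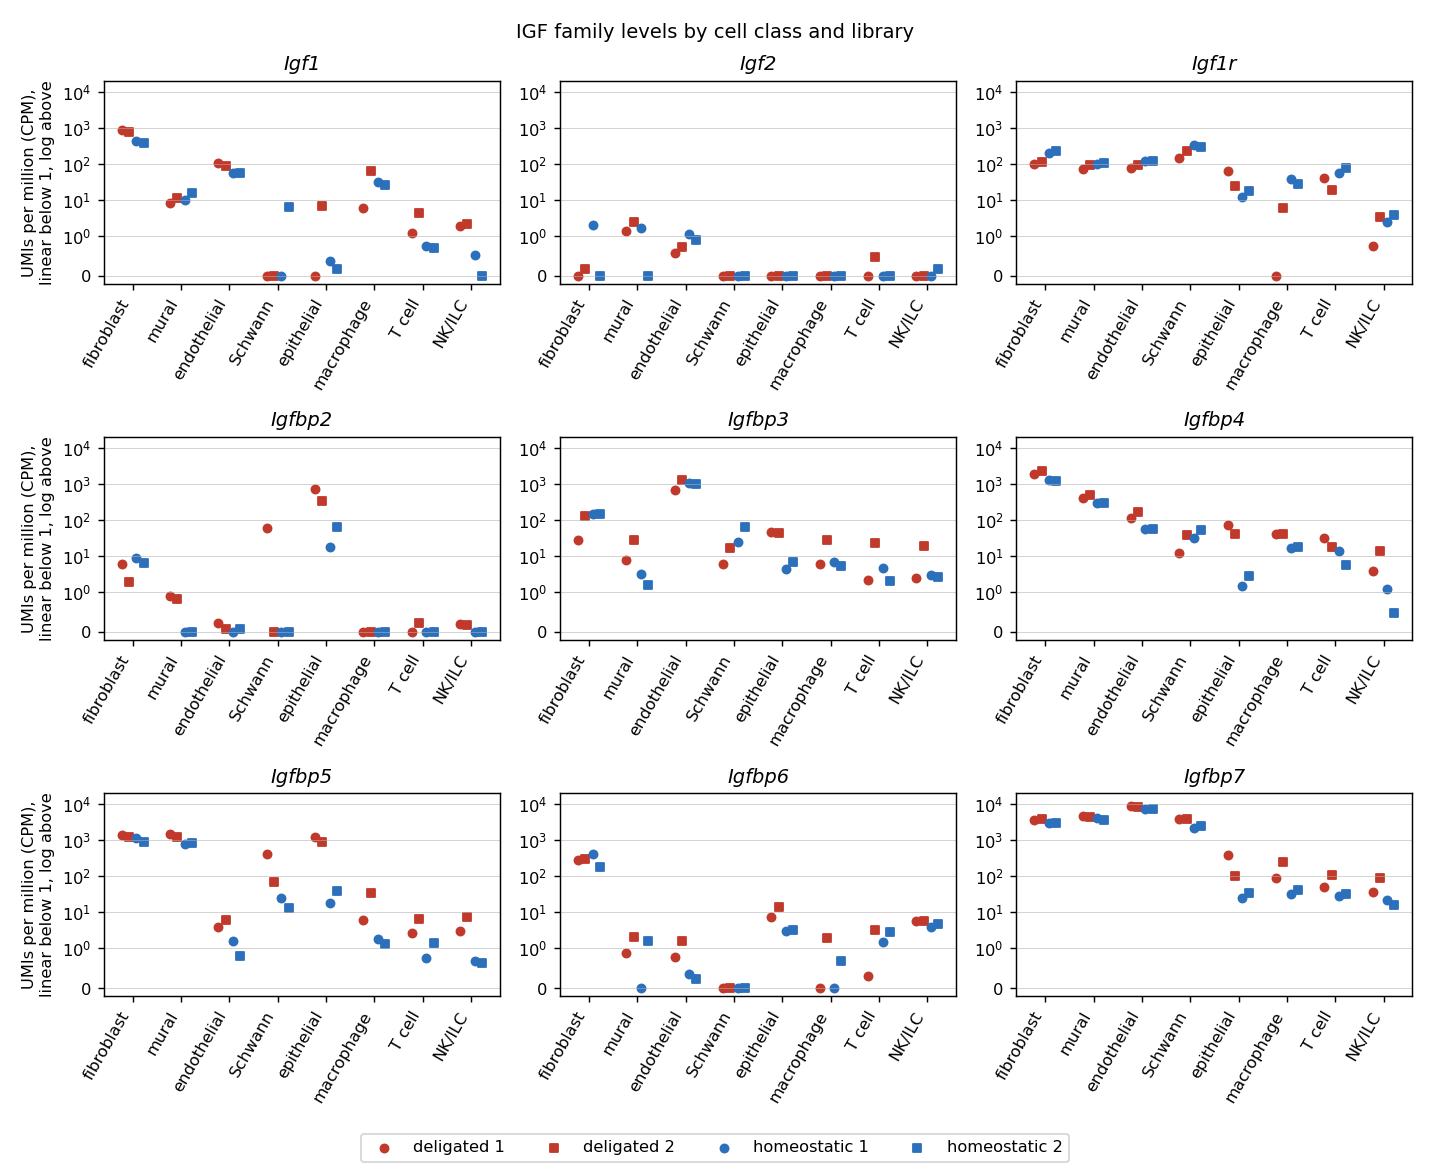
Levels of the 9 genes (CPM on a scale that is linear below 1 and logarithmic above, y axis) in 8 cell classes (x axis), with 1 point per library, red for deligated and blue for homeostatic. Igf1 and Igfbp4 peak in fibroblast-like cells and Igfbp3 and Igfbp7 in endothelial-like cells, and Igfbp2 peaks in epithelial-like cells.

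Igfbp4 (ENSMUSG00000017493, chromosome 11, 99041244 to 99054392, plus strand), a binding protein that restrains IGF action until a protease cuts it, changed in the most classes. Fibroblast-like cells held 1930, 2241, 1273 and 1221 CPM, mural-like cells 420, 490, 299 and 288 CPM, and endothelial-like cells 116, 168, 56.5 and 57.4 CPM. The 3 classes did not overlap in any library, and in each of them both deligated libraries were above both homeostatic ones. The log2 fold change was 0.79 in fibroblast-like cells (SE 0.12, adjusted p = 0.00102 in edgeR), 1.33 in endothelial-like cells (SE 0.15, adjusted p = 0.00115 in edgeR) and 0.62 in mural-like cells (SE 0.14, adjusted p = 0.0257 in edgeR). Fibroblast markers summed to 1058, 974, 479 and 527 CPM in mural-like cells, higher in both deligated libraries, and their part in the mural change was not tested. The mural call was lost with the intron-length trend removed (0.47, adjusted p = 0.0933 in edgeR, range over 14 alternatives 0.00495 to 0.194). The change was larger in endothelial-like than in mural-like cells by 0.74 (SE 0.16, adjusted p = 0.04 in edgeR), a difference that passed in 4 of 13 alternatives (range 0.0077 to 0.726).

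Igfbp4 was higher in both deligated libraries in every endothelial sub-group. Venous cells held 456, 522, 146 and 201 CPM and the remaining endothelial-like cells 70.1, 153, 41.5 and 40.3 CPM, without overlap of the groups. Arterial cells held 254, 189, 155 and 176 CPM, also without overlap but closer together. Fibroblast markers summed to 39.6, 121, 11.2 and 10.8 CPM in endothelial-like cells, higher in both deligated libraries. Their part in the Igfbp4 result was not tested. In NK/innate lymphoid-like cells Igfbp4 stood at 3.93, 13.4, 1.18 and 0.479 CPM, also higher in the deligated libraries.

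Pappa, the protease best known for cutting IGFBP4, stood at 226, 183, 443 and 511 CPM in fibroblast-like cells (log2 fold change -1.17, SE 0.16, adjusted p = 0.000424 in edgeR). It has 222 kb of intron, in the length range whose median fell by 1.02. Stc1, a secreted inhibitor of that protease with 8.37 kb of intron, was at 24.0, 8.01, 2.95 and 2.71 CPM in the same cells, a log2 fold change of 2.51 (SE 0.65, adjusted p = 0.0172 in edgeR).

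Igfbp5 (ENSMUSG00000026185, chromosome 1, 72857932 to 72874884, minus strand), which binds extracellular matrix as well as IGF, came from fibroblast-like and mural-like cells. Mural-like cells held 1458, 1258, 771 and 831 CPM, a log2 fold change of 0.75 (SE 0.15, adjusted p = 0.0119 in edgeR). The higher fibroblast markers of deligated mural-like cells, given above, stand beside this change too, and their part in it was not tested. Fibroblast-like cells held 1417, 1265, 1142 and 898 CPM. The groups did not overlap in either class, and the fibroblast change of 0.45 did not pass the threshold (SE 0.15, adjusted p = 0.0536 in edgeR). It passed in 5 of 14 alternatives, over which the value lay between 0.29 and 0.62.

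Mural-like cells of the deligated libraries could be divided into smooth muscle and pericytes. Smooth muscle cells (Myh11, Acta2) held 1914 and 1768 Igfbp5 CPM and pericytes (Kcnj8, Abcc9) 767 and 487 CPM. Of the homeostatic mural-like cells 103 and 105 fell in neither sub-group, and 10 and 3 were smooth muscle and 19 and 10 pericytes, so the groups were not compared within them and a change in their mix was not tested. In endothelial-like cells Igfbp5 stood at 3.97, 5.99, 1.57 and 0.809 CPM, near the 2.998, 7.10, 0.674 and 0.639 CPM of NK/innate lymphoid-like cells. The endothelial call for Igfbp5 (log2 fold change 2.08, SE 0.36, adjusted p = 0.00632 in edgeR) rests on these low values.

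Igfbp2 (ENSMUSG00000039323, chromosome 1, 72824503 to 72852474, plus strand) lies 5.457 kb from Igfbp5 on the other strand. Its source was a small epithelial-like cluster led by Krt14, Krt5, Krt17, Cnn1 and Trp63, genes of basal and myoepithelial cells. Igfbp2 was itself among the leading genes of that cluster, so its place there is a description. The cluster held 27, 14, 62 and 78 cells and 846 of 944 Igfbp2 UMIs (89.6%). Igfbp2 stood there at 826, 1115, 872 and 915 CPM, with the homeostatic libraries between the deligated ones. Igfbp5 stood there at 1415, 3055, 741 and 465 CPM, and both deligated libraries were higher, from 341, 263, 124 and 206 UMIs.

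For the whole epithelial-like class Igfbp2 was at 725, 330, 17.5 and 63.5 CPM, and Igfbp5 at 1242, 907, 18.1 and 38.0 CPM. These class values carry the mix of cells: the class held 38, 77, 1764 and 1768 cells, of which the Krt14 cluster was 27, 14, 62 and 78, and all 4 suspensions had been depleted of EpCAM-positive cells. The class was not tested, as deligated 1 held under 50 cells. In fibroblast-like cells Igfbp2 was at most 8.84 CPM and did not pass the threshold (log2 fold change -0.97, SE 0.55, adjusted p = 0.220 in edgeR).

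Igfbp3 (ENSMUSG00000020427, chromosome 11, 7206086 to 7213923, minus strand), the main IGF carrier in blood, was an endothelial gene here, with 97.3%, 92.0%, 93.7% and 93.9% of its UMIs. Endothelial-like cells held 681, 1317, 1078 and 1031 CPM. The homeostatic libraries lay between the deligated ones, and no change was called (log2 fold change -0.07, SE 0.25, adjusted p = 0.849 in edgeR). Without deligated 1 the value was 0.30 (adjusted p = 4.67e-06 in edgeR, range over 15 alternatives 1.97e-09 to 0.987), and without deligated 2 it was -0.54. The deligated libraries therefore disagree on Igfbp3.

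Igfbp3 was also uneven between vessel types, as a description. Arterial cells held 776, 1188, 794 and 761 CPM and the remaining endothelial-like cells 703, 1373, 1150 and 1089 CPM. Venous cells held 51.0, 77.6, 31.9 and 31.2 CPM, the lowest of the 3 in every library, from 37, 37, 14 and 11 UMIs. Igfbp4 and Igf1 were not low in these venous cells, as given above.

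Deligated 1 was also low for Igfbp3 in fibroblast-like cells, at 28.5 CPM against 133, 149 and 147 CPM in the other 3 libraries. The log2 fold change there was -0.83 (SE 0.48, adjusted p = 0.231 in edgeR), -0.14 without deligated 1 and -2.27 without deligated 2. In deligated 2, Igfbp3 was higher than elsewhere in lymphocytes, at 18.7 CPM in NK/innate lymphoid-like cells against 2.44, 2.86 and 2.56 CPM. In mural-like cells deligated 2 was also highest, and deligated 1 was above both homeostatic libraries, at 7.55, 27.0, 3.21 and 1.54 CPM. These values rest on 17, 66, 2 and 1 UMIs (log2 fold change 2.82, SE 0.94, adjusted p = 0.113 in edgeR). Endothelial markers were highest in deligated 2 as well. They summed to 114, 199, 106 and 106 CPM in NK/innate lymphoid-like and 372, 622, 371 and 276 CPM in mural-like cells. Their part in the Igfbp3 values was not tested.

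**Figure D3:**
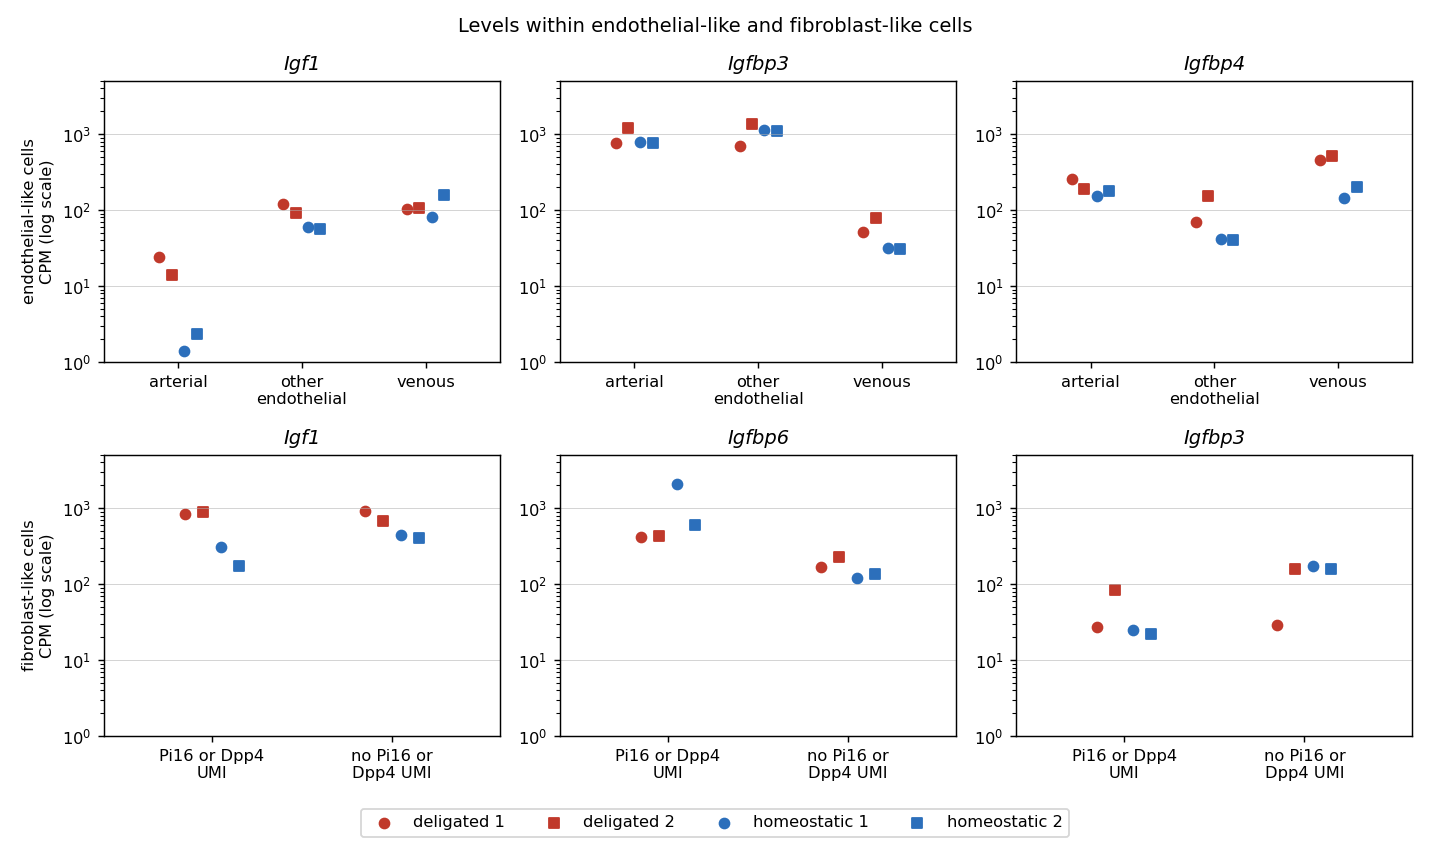
Levels (CPM, logarithmic y axis) in arterial, other and venous endothelial-like cells (upper row) and in fibroblast-like cells with or without a UMI of Pi16 or Dpp4 (lower row), with 1 point per library, red for deligated and blue for homeostatic. Igf1 is lowest in arterial and Igfbp3 lowest in venous cells in all 4 libraries, and Igfbp6 is higher in the cells with Pi16 or Dpp4.

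Igfbp6 (ENSMUSG00000023046, chromosome 15, 102144362 to 102149511, plus strand), which prefers IGF2 over IGF1, was a fibroblast gene, with 94.7%, 92.3%, 83.4% and 83.3% of its UMIs there. Fibroblast-like cells held 273, 297, 426 and 184 CPM. The homeostatic libraries lay on either side of the deligated ones, and no change was called (log2 fold change -0.05, SE 0.29, adjusted p = 0.926 in edgeR). In endothelial-like cells Igfbp6 was at 0.767, 1.54, 0.356 and 0.221 CPM, under the 3.87 to 5.85 CPM of NK/innate lymphoid-like cells, with a log2 fold change of 2.00 (SE 0.54, adjusted p = 0.0308 in edgeR) that fell short of the threshold in 5 of 13 alternatives. The gene met the filter there only through the deligated libraries, so it could be called in that direction alone, and the call supports nothing.

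Igfbp6 was uneven among fibroblast-like cells when they were split by a UMI of Pi16 or Dpp4, markers of fibroblasts around vessels (adventitia); this split was made after the values were seen. Cells with such a UMI were 41.0%, 32.5%, 13.1% and 9.29% of the class, whose median depth per cell was 13234, 9278, 6800.5 and 6558 UMIs, and the part of depth in these shares was not tested. They held 417, 429, 2081 and 611 Igfbp6 CPM, against 166, 228, 122 and 137 CPM in cells without. Both deligated libraries were below both homeostatic ones in cells with such a UMI and above them in cells without. In homeostatic 1 these were 39 cells, with up to 89 Igfbp6 UMIs in 1 cell. Igfbp5 in the same 39 cells was also high, at 2985 CPM against 1634, 1588 and 638 CPM in the other libraries. Igf1 stood at 848, 891, 310 and 172 CPM in cells with and at 927, 678, 445 and 404 CPM in cells without, higher in both deligated libraries in either set. Igfbp3 went the other way between the sets outside deligated 1, at 27.4, 84.0, 25.3 and 22.2 CPM in cells with and 29.3, 159, 172 and 160 CPM in cells without.

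Igfbp7 (ENSMUSG00000036256, chromosome 5, 77349240 to 77408041, minus strand) was read in all vessel and connective tissue classes. Endothelial-like cells held 8936, 8184, 7208 and 7387 CPM and 76.0% to 87.8% of its UMIs. Mural-like cells held 4638, 4290, 4182 and 3753 CPM, fibroblast-like cells 3640, 3970, 2948 and 3024 CPM, and Schwann-like cells 3971, 3913, 2219 and 2417 CPM. Both deligated libraries lay above both homeostatic ones in all 4 classes. Fibroblast markers in Schwann-like cells were also higher in both, at a sum of 4553, 2975, 1285 and 1170 CPM. Their part in the Igfbp7 change there was not tested. The change passed the threshold in fibroblast-like cells (log2 fold change 0.40, SE 0.12, adjusted p = 0.0296 in edgeR; lost in 5 of 14 alternatives) and not in endothelial-like (0.25, SE 0.11, adjusted p = 0.113 in edgeR) or mural-like cells (0.16, SE 0.11, adjusted p = 0.445 in edgeR). With the intron-length trend removed the endothelial change was 0.45 and passed (adjusted p = 0.0182 in edgeR, range over 15 alternatives 2.74e-09 to 0.548). Igfbp7 overlaps Polr2b and Gm34648 on the other strand, and Igf1 overlaps Igf1os. Whether counting used strand is not given in the sources used here, so reads of such pairs may be mixed.

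Counting the members by class, 4 of 8 tested passed in fibroblast-like cells (3 higher, 1 lower), where 26% of 11478 genes passed (8.32% higher, 17.7% lower). In endothelial-like cells 5 of 8 passed (4 higher, 1 lower), where 35.4% of 13130 genes passed (13.1% higher, 22.3% lower). In mural-like cells 2 of 6 passed, both higher, where 7.61% of 9794 genes passed (1.08% higher, 6.52% lower). Without homeostatic 1 none of the 6 passed in edgeR, with 3 at an unadjusted p under 0.05. The median log2 fold change of the tested members was 0.18, 0.54 and 0.39 in these classes, and that of all genes was 0.00, -0.00 and 0.01. The endothelial median includes Igfbp6 and the mural median Igfbp3, which met the filter there only through the deligated libraries. These medians of endothelial-like and mural-like cells therefore support nothing. In endothelial-like cells Igfbp6 (11, 26, 5 and 3 UMIs) and in mural-like cells Igfbp3 (17, 66, 2 and 1 UMIs) met the filter on low counts only in the deligated libraries, so they could be called higher alone. Igfbp6 is among the 4 higher in endothelial-like cells and adds nothing to that count; Igfbp3 is among the 6 tested in mural-like cells and did not pass. The counts also include Igf1r, whose direction turned with the trend, and the low endothelial values of Igfbp5 and Igfbp6.

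**Figure D4:**
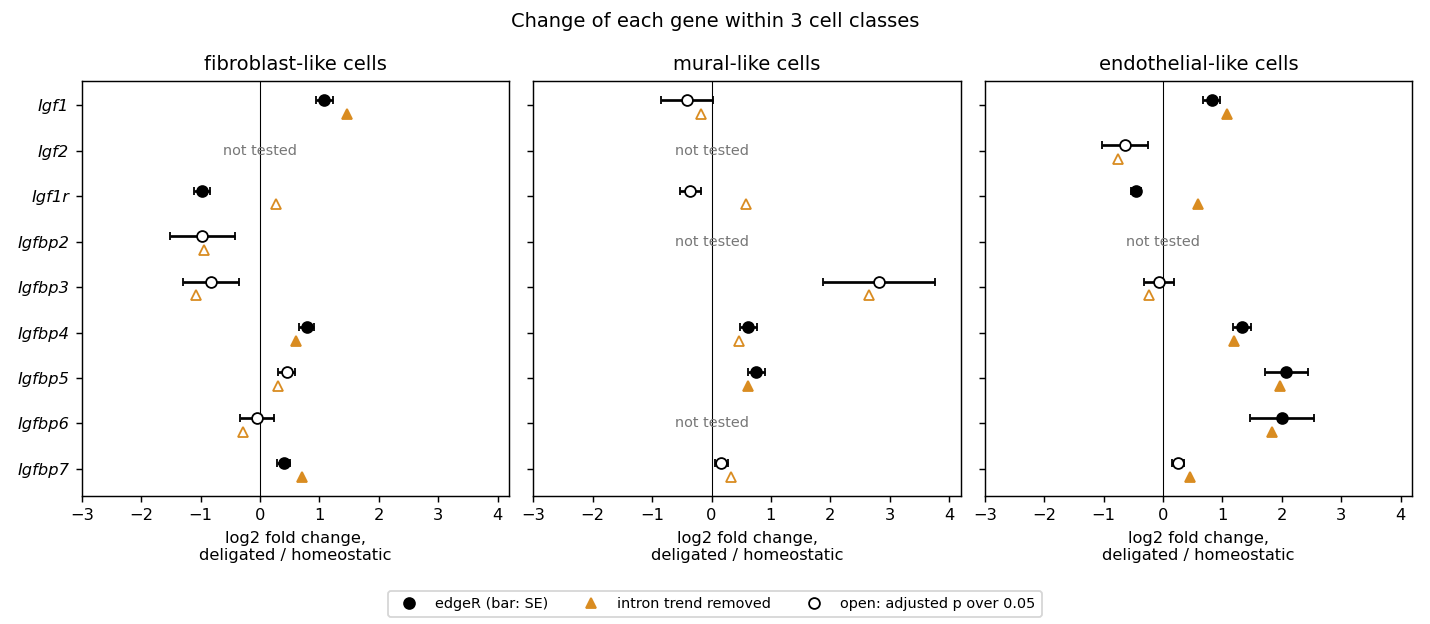
Log2 fold change (x axis) of the 9 genes in 3 cell classes. Circles are the edgeR values with their SE as bars, triangles the values with the intron-length trend removed, and filled symbols passed an adjusted p of 0.05. Igf1 and Igfbp4 lie above 0 in fibroblast-like and endothelial-like cells by both measures, and Igf1r crosses 0.

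Differences between classes were tested directly. Of 9 members, 2 differed between fibroblast-like and endothelial-like cells, where 5.82% of 14150 genes did. Igfbp5 gave a log2 difference of -1.50 (SE 0.29, adjusted p = 0.00443 in edgeR) and Igfbp6 one of -1.90 (SE 0.45, adjusted p = 0.0187 in edgeR), and both rest on the low endothelial values above; each lost its call in 5 of 13 alternatives. For Igfbp6, which met the endothelial filter only through the deligated libraries, this difference supports nothing. Between fibroblast-like and mural-like cells 1 of 8 differed (Igfbp3, -3.54, SE 0.54, adjusted p = 0.0156 in edgeR), where 0.529% of 11731 genes did, and it was lost in 3 of 13 alternatives. The mural values behind it are the 17, 66, 2 and 1 UMIs given above. Igfbp3 met the filter in mural-like cells only through the deligated libraries, so its differences from mural-like cells are given as fitted and support nothing. Between endothelial-like and mural-like cells 2 of 8 differed, Igfbp4 as above and Igfbp3 (-2.83, SE 0.61, adjusted p = 0.0434 in edgeR), where 0.705% of 13754 genes did. This Igfbp3 difference was lost in 10 of 13 alternatives (adjusted p up to 0.741).

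In NK/innate lymphoid-like cells 5 of 7 members were higher (43% of 11226 genes passed, 16.6% higher and 26.5% lower) and in T cell-like cells 2 of 4, Igfbp4 and Igfbp7 (24.2% of 9923 genes passed, 7.23% higher and 17% lower). In NK/innate lymphoid-like cells Igf1 (10, 26, 3 and 0 UMIs), Igfbp4 (21, 160, 7 and 3) and Igfbp5 (16, 85, 4 and 4) met the filter only in the deligated libraries, so they could be called in that direction alone, and the count supports nothing. The T cell count was 0 in edgeR without homeostatic 1 or without homeostatic 2, with 3 and 1 of 7 members at an unadjusted p under 0.05. All were at low level. Igfbp7 was at 35.2, 86.8, 22.2 and 15.3 CPM in NK/innate lymphoid-like cells. The 8 fibroblast markers summed to 42.7, 118, 5.73 and 7.35 CPM in the same cells, also higher in both deligated libraries and highest in deligated 2, with none at 0, and their part in these calls was not tested.

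Summed over all retained cells, 5 of 9 members passed (4 higher, 1 lower), where 52.9% of 16770 genes did (23.5% higher, 29.5% lower). Igf1 stood at 180, 139, 44.3 and 40.2 CPM (log2 fold change 1.77, SE 0.16, adjusted p = 0.000907 in edgeR). Igfbp4 stood at 370, 409, 90.5 and 86.4 CPM (2.00, SE 0.09, adjusted p = 0.000206 in edgeR) and Igfbp5 at 326, 256, 74.6 and 63.8 CPM (1.93, SE 0.16, adjusted p = 0.000818 in edgeR). These log2 fold changes exceeded those in fibroblast-like cells for all 3 genes. In such sums more cells of a type and more RNA per cell cannot be told apart. Igfbp7 changed by 0.52 (SE 0.15, adjusted p = 0.0344 in edgeR), and Igf1r by -0.23 (SE 0.07, adjusted p = 0.0486 in edgeR), which turned to 0.81 with the trend removed (adjusted p = 0.00125 in edgeR, range over 13 alternatives 0.00125 to 0.428).

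**Figure D5:**
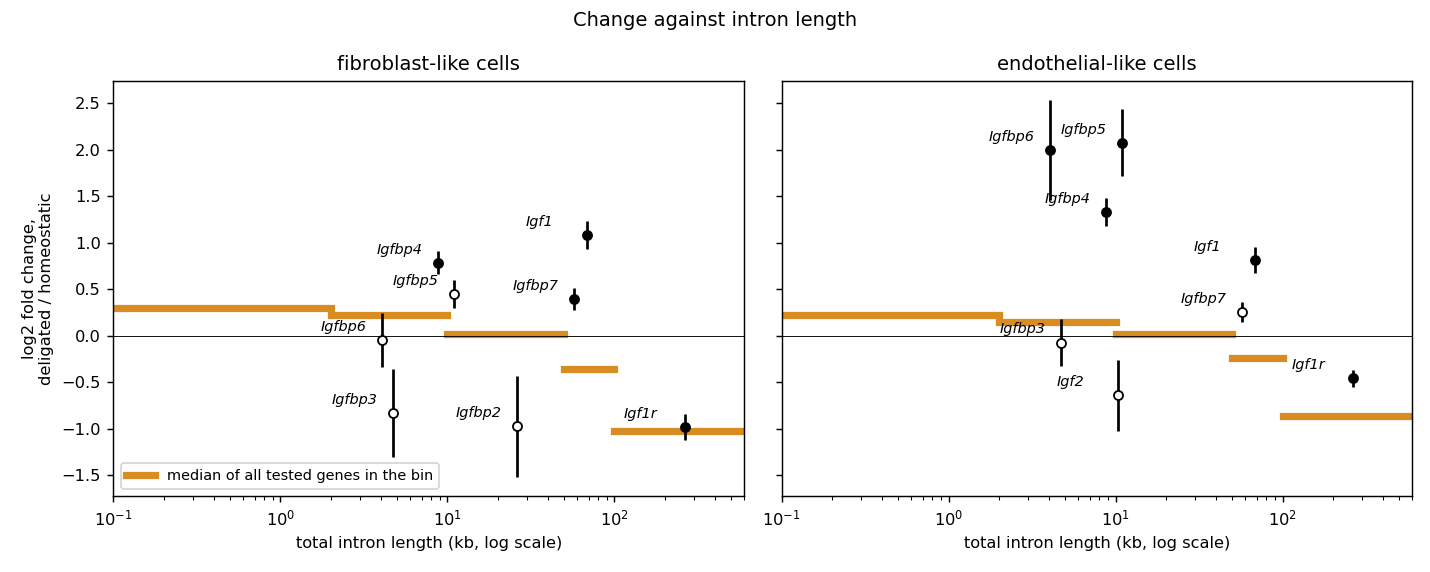
Log2 fold change (y axis, bars are SE) of the tested members against total intron length (kb, logarithmic x axis), with the median of all tested genes in 5 length ranges as orange bars. Filled circles passed an adjusted p of 0.05. Igf1r lies at the medians of -1.02 (fibroblast-like) and above that of -0.86 (endothelial-like) for genes over 100 kb, and Igf1 lies above the median of its range in both.

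Other genes of the pathway were read from a list of receptors, proteases, adaptors and signalling genes. In fibroblast-like cells 6 of the 34 tested rose and 11 fell, where 8.32% of all genes rose and 17.7% fell. In endothelial-like cells 6 of 30 rose and 8 fell (all genes: 13.1% and 22.3%), and in mural-like cells none of 32 rose and 5 fell (all genes: 1.08% and 6.52%). With the intron-length trend removed the balance turned, to 6 higher and 4 lower in fibroblast-like and 7 higher and 4 lower in endothelial-like cells, and 1 in each direction was left in mural-like cells. Over all genes the balance moved as well, to 7.86% higher and 9.08% lower in fibroblast-like and 13.1% and 17.4% in endothelial-like cells. The median log2 fold change as deposited was -0.24, -0.08 and -0.05. Among receptors and adaptors, the growth hormone receptor Ghr, which drives Igf1 in liver, changed by -2.16 in the endothelial-like class and by -2.22 in the mural-like class (adjusted p = 4.6e-05 in edgeR and 0.00563). The adaptor Irs1 changed by -1.35 in mural-like cells. Ghr has 257 kb of intron and Irs1 has 49.2 kb. The uptake receptor Lrp1, with 65.3 kb of intron, gave 2.00 in endothelial-like cells at no more than 6.11 CPM.

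Genes of the list with little intron also changed. H19, the imprinted neighbour of Igf2, with 0.155 kb of intron, stood at 19.96, 19.02, 108 and 86.1 CPM in fibroblast-like cells (log2 fold change -2.27, SE 0.16, adjusted p = 7e-06 in edgeR). Both deligated libraries were below both homeostatic ones. Adamts1, a secreted protease with 3.98 kb of intron, rose in endothelial-like cells from 106 and 104 to 193 and 172 CPM (log2 fold change 0.82, SE 0.11, adjusted p = 0.00221 in edgeR). The lysosomal protease Ctsd rose by 0.62 in fibroblast-like cells (SE 0.15, adjusted p = 0.0107 in edgeR).

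The genes whose pattern over 32 points (8 classes in 4 libraries) was most like each member were found by Pearson's r of log2(CPM + 1) among 9656 genes, as a description, since the points share libraries and depth. For Igf1 these were Gdf10 (0.89) and Rspo3 (0.86), for Igfbp4 Slc29a1 (0.92) and Kdelr1 (0.90), for Igfbp5 Oat (0.94) and Lhfp (0.93), and for Igfbp6 Itgbl1 (0.93) and Pdgfra (0.92). For Igfbp3 they were Fgd5 (0.95) and Plscr2 (0.92) and for Igfbp7 Id3 (0.98) and Col4a1 (0.97). For Igf1r they were Kifap3 (0.89) and Zfp462 (0.88), for Igfbp2 Lcn2 and Trp63 (both 0.85), and for Igf2 Gm13889 and Ttll7 (both 0.74), the last from very few UMIs.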

How the data were processed

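Single-cell RNA was counted in 4 libraries, 2 per group, by 10x Genomics. The deposited matrices hold raw UMI counts per gene and barcode. Cell Ranger 6.0.1 made those of the deligated and 7.0.0 those of the homeostatic libraries, per the file headers; the submitters' processing notes name Cell Ranger 6.0.1, Seurat and mm10. Whether intron reads were counted is not given in the sources used here. Of 31053 gene identifiers 31011 (99.9%) matched GENCODE M21 on GRCm38.

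Cells with at least 300 genes and at most 10% mitochondrial UMIs were kept, and 2990 doublets were removed (scored against simulated doublets, 0.8% per 1000 cells). After scaling each cell to 10000 UMIs, 3000 variable genes, 30 principal components and 20 neighbours gave Leiden clusters at resolution 1.0 (2.0 for vessel sub-groups). A cluster was named from at least 3 markers, and 4.09%, 5.80%, 26.0% and 28% of cells stayed unnamed. Markers of salivary secretory products summed to 33.0, 62.1, 1531 and 1508 CPM in endothelial-like cells.

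Deposited counts of each class were added up within a library and tested with edgeR 4.0.16 (R 4.3.3; quasi-likelihood, TMM, filterByExpr), for classes with at least 50 cells in every library, with Benjamini-Hochberg adjustment over all genes and a threshold of 0.05. The SE is the log2 fold change divided by the root of F. Class differences used a class by group term with library as covariate. The library was the replicate; an exact permutation of 2 against 2 cannot pass the threshold and was not used. The fit was tested on simulated data. DESeq2 1.42.0, other filters, omitted libraries, removal of the intron-length trend, deeper or thinned cells, no doublet removal and resolution 2.0 were tried. Replicate numbers were not treated as pairs. The correlation of same-numbered deviations was 0.05 in fibroblast-like and -0.18 in endothelial-like cells. With a single difference per group, this cannot decide whether they were pairs.

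All 9 members are named. From the pathway list, the 2 largest changes in each direction past the threshold in endothelial-like, fibroblast-like and mural-like cells are named, and for each member the 2 genes most like it; Pappa was chosen after its values were seen. A list gene that this rule also takes is not reported here. Members and lists were chosen with earlier results of these data known.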

Additional observations from a re-analysis of the deposited data

Results flagged for a closer look

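The change between groups differed between 2 cell classes, by the edgeR class by group test, for 5 combinations of a member and a pair of classes; 3 of them, of Igfbp6 and Igfbp3, rest on a member that met the filter on low counts in a class only through the deligated libraries, and support nothing. For fibroblast-like minus endothelial-like cells Igfbp5 gave a log2 difference of -1.502 and Igfbp6 one of -1.90; endothelial-like cells held at most 5.99 and 1.54 CPM of these genes. Igfbp3 gave -3.54 for fibroblast-like minus mural-like cells and -2.83 for endothelial-like minus mural-like cells, where mural-like cells held 1.54 to 27.0 CPM, from 17, 66, 2 and 1 UMIs. Igfbp4 gave 0.74 for endothelial-like minus mural-like cells.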

How the results depend on the processing

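Over all alternatives for single genes, 451 values kept their direction and side of the threshold, 75 lost the call, 26 gained it and 21 changed sign. Igf1 and Igfbp4 in fibroblast-like and endothelial-like cells kept both in all alternatives run. With the intron-length trend removed Igf1r became 0.58 in endothelial-like, 0.26 in fibroblast-like, 0.57 in mural-like and 0.81 in all cells. The other sign changes were of values that did not pass in the reported fit, or of Igfbp3 in NK/innate lymphoid-like cells (-0.043 without deligated 2). Igfbp6 in fibroblast-like cells became 0.060 with cells of at least 1000 UMIs, 0.12 after thinning to 1000 UMIs and 0.67 without homeostatic 1. Igf1 in mural-like cells became 0.46 without doublet removal and 0.0011 without homeostatic 2. Igfbp3 became 0.30 in endothelial-like cells without deligated 1, and in all cells 0.0091 with no filter, 0.33 without deligated 1 and 0.02 without homeostatic 1. Igf2 in all cells became 0.0071 with no filter, 0.36 without doublet removal, 0.13 without deligated 1 and 0.34 without homeostatic 1, and Igfbp2 in all cells 0.16 without homeostatic 2. The causes were not tested.

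Leaving out each library in turn, the number of members called ranged from 3 to 7 (endothelial-like), 3 to 6 (fibroblast-like), 0 to 3 (mural-like), 3 to 5 (NK/innate lymphoid-like), 0 to 4 (T cell-like) and 4 to 8 (all cells). The share of all genes called moved with it, from 18.03% to 55.2%, 10.4% to 36.0%, 3.17% to 12.5%, 21.1% to 55.7%, 6.45% to 36.7% and 26.0% to 68.5% in the same order. The pathway list gave 7 to 20, 7 to 19, 1 to 9, 10 to 19 and 2 to 12 in the same 5 classes. The class differences gave 1 to 6 (fibroblast-like minus endothelial-like), 0 to 2 (fibroblast-like minus mural-like) and 0 to 3 (endothelial-like minus mural-like), where 2.30% to 8.16%, 0.0082% to 1.66% and 0.352% to 1.39% of all genes differed. The ranges with a sign change were -0.54 to 0.30 for Igfbp3 in endothelial-like cells, -0.52 to 0.67 for Igfbp6 in fibroblast-like cells, -0.74 to 0.0011 for Igf1 in mural-like cells and -0.043 to 2.82 for Igfbp3 in NK/innate lymphoid-like cells. In all cells they were -0.29 to 0.34 for Igf2, -1.68 to 0.16 for Igfbp2 and -0.41 to 0.33 for Igfbp3. In these fits a lone library is assumed to vary like the other group.

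Among other settings, thinned cells gave 3 of 5 tested members in endothelial-like cells, 1 of 1 in the NK/innate lymphoid-like class and 1 of 3 in T cell-like cells (lower, where both reported calls were higher), and 7, 1 and 3 list genes in fibroblast-like, mural-like and T cell-like cells. Of all genes, 23.3% were called in endothelial-like, 18.2% in fibroblast-like, 7.05% in mural-like, 28.9% in NK/innate lymphoid-like and 15.5% in T cell-like cells there. Trend removal gave 1 of 6 members in mural-like and 1 of 4 in T cell-like cells, and 10, 2 and 5 list genes in fibroblast-like, mural-like and T cell-like cells (all genes: 16.9%, 4.54% and 12.8%). DESeq2 gave 3 of 7 members in NK/innate lymphoid-like (all genes: 29.2%) and 1 of 4 in T cell-like cells, and 3 and 4 list genes in mural-like and T cell-like cells (all genes: 5.07% and 14.05%). No filter gave 5 members in T cell-like cells (all genes: 19.8%) and 8 list genes in mural-like cells (5.87%), and the stricter filter 1 of 1 tested member in NK/innate lymphoid-like (all genes: 47.2%) and 1 of 3 in T cell-like cells (24.97%). For fibroblast-like minus endothelial-like cells the count was 4 with no filter, 4 with the trend removed, 1 without doublet removal, and 0 with DESeq2, with deeper cells and with thinned cells. Thinned cells gave 0 for fibroblast-like minus mural-like cells. For endothelial-like minus mural-like cells it was 1 with the trend removed and 0 with DESeq2 size factors, DESeq2, the stricter filter, deeper cells, no doublet removal and thinned cells; the reported edgeR fit had 4 of 8 members at an unadjusted p under 0.05.

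With the replicate number as a block, 4 of 8 members passed in endothelial-like cells (31.0% of all genes), 6 of 8 in fibroblast-like (27.1%), 3 of 6 in mural-like (8.85%) and 4 of 4 in T cell-like cells (27.3%); Igfbp6 in fibroblast-like cells became 0.068 and Igf2 in all cells 0.015. Crossed pairing, chosen after seeing the data, gave 5 of 8 members in endothelial-like cells, where 39.9% of all genes were called.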
